A study of Homo sapiens with 36 samples.

Results

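The genes SLC45A1, RERE and BASP1 lie within 150 kb of peaks that rank among the strongest in this Cut&Run study. All tagged hypoxia-inducible factor (HIF) lines had these peaks in common. The genes stand at 2 loci, because SLC45A1 and RERE are neighbours on chromosome 1 and BASP1 is on chromosome 5. A peak was assigned to a gene when its summit, the base with the strongest signal, lay in the GENCODE gene body or within 150 kb on either side. Of 213711 peaks in 18 deposited lists, 435 were assigned in this way. Merging of overlapping peaks that occurred in at least 2 libraries gave 25783 consensus regions genome-wide, of which 49 were sites of these loci, 39 on chromosome 1 and 10 on chromosome 5; 63 of the 435 peaks lay in no consensus region and are not described further. The genes were selected on the within-list ranks of their peaks, which were near the top in all tagged lines, so the ranks and calls below are descriptions where they restate that choice.

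Cut&Run cuts and sequences the DNA around a protein that is bound by an antibody in permeabilised cells. Here an anti-V5 antibody was used in 786-O, an established clear cell renal cell carcinoma line that is deficient in VHL and lacks functional HIF-1a (α is written a, as in the sample labels). There were 6 lines with 3 replicates each: unedited wild type (WT), which carries no V5 tag; HIF-2a KIN, homozygous clone A31 with V5-Halo at the N-terminus of the endogenous HIF-2a; and 4 stable pools that express a V5-Halo fusion from the L30 promoter. These pools are HIF-2a, HIF-1a and the chimeras HIF-2a/1a (residues 1-365 of HIF-2a followed by 364-826 of HIF-1a) and HIF-1a/2a (residues 1-363 of HIF-1a followed by 366-870 of HIF-2a). They were made in unedited cells by PiggyBac integration and puromycin selection, and thus also hold untagged endogenous HIF-2a, which the antibody does not see. The stable pools were kept under puromycin selection, which is not described for WT and KIN; no other treatment is named. The KIN line is 1 clone, so clone and tag at the endogenous gene cannot be told apart. The lists held 3984 to 20808 peaks in tagged libraries and 392, 9508 and 743 in WT. The matched IgG libraries enter only through the peak calls, as their background. The labels do not say whether replicates were separate cultures, so the spread between them may be technical.

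HIF-α subunits pair with HIF-1β and bind the hypoxia response element (HRE), whose core is ACGTG or GCGTG. Genes of glycolysis, angiogenesis and oxygen sensing are among their known targets. The N-terminal part holds the basic helix-loop-helix and PAS domains that bind DNA and HIF-1β (called DBD here), and the C-terminal part is a long intrinsically disordered region (IDR) with the transactivation domains. Without VHL, HIF-2α is not degraded and drives the growth of clear cell carcinoma. SLC45A1 encodes a proton-coupled sugar transporter, RERE a transcriptional co-regulator of the atrophin family that recruits histone deacetylases, and BASP1 a myristoylated membrane-associated protein that also acts as a transcriptional co-suppressor. None of them belongs to the usual list of HIF target genes. ENO1, the glycolytic enzyme enolase and a textbook HIF target, lies inside the RERE window.

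On hg38, SLC45A1 (ENSG00000162426) spans chr1:8318114-8344167 on the plus strand, RERE (ENSG00000142599) chr1:8352397-8848921 on the minus strand and BASP1 (ENSG00000176788) chr5:17065598-17276843 on the plus strand. The SLC45A1 window held 207 peaks and 19 sites, the RERE window 285 peaks and 33 sites, and the BASP1 window 87 peaks and 10 sites. The first and the second overlap by 291.771 kb and share 13 sites, so they are not independent. Other protein-coding genes in the windows are ENO1, CA6 (a secreted carbonic anhydrase) and MYO10 (an unconventional myosin). The sites that all 15 tagged libraries called number 8, of which 7 lie on chromosome 1 and 1 on chromosome 5.

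The 8 shared sites are spread over non-coding and coding sequence. The strongest of chromosome 1 (consensus region chr1:8200740-8204087, median summit 8202430) lies in an exon of the long non-coding RNA LINC01714, 912 bp from the gene's start and 1 bp from the nearest annotated start of 1 of its transcripts. It is called the LINC01714 exon site and is the lead site of both SLC45A1, whose start is 115684 bp away, and RERE. The site lies beyond the 3' end of RERE, just inside the edge of its window. The start of RERE is farther from it than that of SLC45A1. The LINC01714 intron site (8211155-8213768, summit 8212321) is 9891 bp from it, and an intergenic site (8197631-8198895, summit 8198039) is 4391 bp from it on the other side. The SLC45A1 coding site (8343117-8344241, summit 8343768) lies in coding sequence 25654 bp into the gene. RERE intron sites A (8396363-8397971, summit 8397208) and B (8476805-8479043, summit 8477470) follow. The ENO1 promoter site (8877993-8881246, summit 8879231) is 41 bp upstream of the ENO1 start, within an intron of ENO1-AS1. On chromosome 5 the shared site, which is also the lead site, is the BASP1 intron site (17156615-17159206, summit 17158188), 92590 bp into BASP1 and also within an intron of BASP1-AS1.

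The sequences under these summits are shown so that the HRE cores beside the strongest peaks can be read; each is the plus strand of hg38 around the median summit, with every HRE core (ACGTG or GCGTG on either strand; CACGTG reads as ACGTG on both strands) in capitals. For the 3 strongest sites 100 bases on each side are given, for the others 50, and for the ENO1 promoter the part upstream of its start.
LINC01714 exon site, chr1:8202330-8202530: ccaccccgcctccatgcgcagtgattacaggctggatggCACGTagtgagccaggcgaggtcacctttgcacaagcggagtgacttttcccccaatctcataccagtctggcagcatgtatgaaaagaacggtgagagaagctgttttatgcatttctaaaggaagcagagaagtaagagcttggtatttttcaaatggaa
LINC01714 intron site, chr1:8212221-8212421: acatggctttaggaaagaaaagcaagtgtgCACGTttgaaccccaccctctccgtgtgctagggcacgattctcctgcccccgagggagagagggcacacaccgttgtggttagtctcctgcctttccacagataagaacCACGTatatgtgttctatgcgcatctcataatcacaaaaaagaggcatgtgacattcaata
BASP1 intron site, chr5:17158088-17158288: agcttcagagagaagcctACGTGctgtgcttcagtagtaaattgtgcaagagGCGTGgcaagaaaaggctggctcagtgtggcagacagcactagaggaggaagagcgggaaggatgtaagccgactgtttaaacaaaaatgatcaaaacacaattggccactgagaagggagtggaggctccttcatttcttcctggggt
ENO1 promoter site, chr1:8879191-8879306: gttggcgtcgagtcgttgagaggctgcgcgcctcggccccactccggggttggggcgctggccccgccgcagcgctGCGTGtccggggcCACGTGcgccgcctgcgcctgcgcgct
SLC45A1 coding site, chr1:8343718-8343818: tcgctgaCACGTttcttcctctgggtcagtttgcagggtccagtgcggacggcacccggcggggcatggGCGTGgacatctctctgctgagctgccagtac
RERE intron site A, chr1:8397158-8397258: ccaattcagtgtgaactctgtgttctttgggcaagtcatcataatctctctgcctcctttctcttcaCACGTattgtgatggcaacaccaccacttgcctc
RERE intron site B, chr1:8477420-8477520: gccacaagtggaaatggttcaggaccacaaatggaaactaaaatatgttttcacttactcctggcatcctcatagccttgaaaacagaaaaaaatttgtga
Intergenic site, chr1:8197989-8198089: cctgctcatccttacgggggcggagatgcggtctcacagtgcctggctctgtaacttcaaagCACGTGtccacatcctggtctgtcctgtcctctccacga
Within 100 bp of the summit the exon site holds a single core, which reads TACGTG on the minus strand and lies 59 bp from the median summit. In the BASP1 site GCGTG lies 46 bp and TACGTG 80 bp from the summit. The intron site of LINC01714 holds TACGTG on the minus strand 42 bp away. At RERE intron site B no core lies within 100 bp of the median summit; the nearest is a TACGTG 109 bp away.

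To see how strongly the lead sites were bound, the peaks of each list were ranked by the deposited −log10 p, with rank 1 for the strongest. At the LINC01714 exon site the rank was 4, 5 and 7 in HIF-2a KIN, 5, 10 and 12 in HIF-2a, 5, 12 and 29 in HIF-2a/1a, 21, 43 and 83 in HIF-1a, and 6, 21 and 21 in HIF-1a/2a (replicates 1 to 3). Thus by −log10 p every tagged library placed it among its first 100 peaks, 7 of 15 among their first 10. The weakest ranks, 43 and 83, were both in HIF-1a, although its first library overlapped the other lines. When peaks were ranked by fold instead, the site ran from 1 in HIF-2a KIN replicate 1 to 370 in HIF-1a replicate 3, so not every library then placed it among its first 100. The fold enrichment over the local background was 34.9 to 205 (median 70.6), and 164 to 1464 fragments covered the summit (median 371). No WT library called it.

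At the BASP1 intron site the rank was 61.5, 44 and 10 in HIF-2a KIN, 35, 6 and 5 in HIF-2a, 18, 5 and 5 in HIF-2a/1a, 6, 64 and 9 in HIF-1a, and 26, 9 and 8 in HIF-1a/2a. The ranges of all 5 lines overlapped. Ranked by fold, the site ran from 2 in HIF-1a replicate 1 to 1168 in HIF-1a replicate 2. The fold was 30.1 to 181 (median 89.1), with 131 to 1550 fragments at the summit (median 306). No WT library called this site either. Among the 1720 regions that all 15 tagged libraries called, the BASP1 site had the 5th lowest median rank (9), the exon site the 8th (12) and the LINC01714 intron site the 24th (38).

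**Figure D1:**
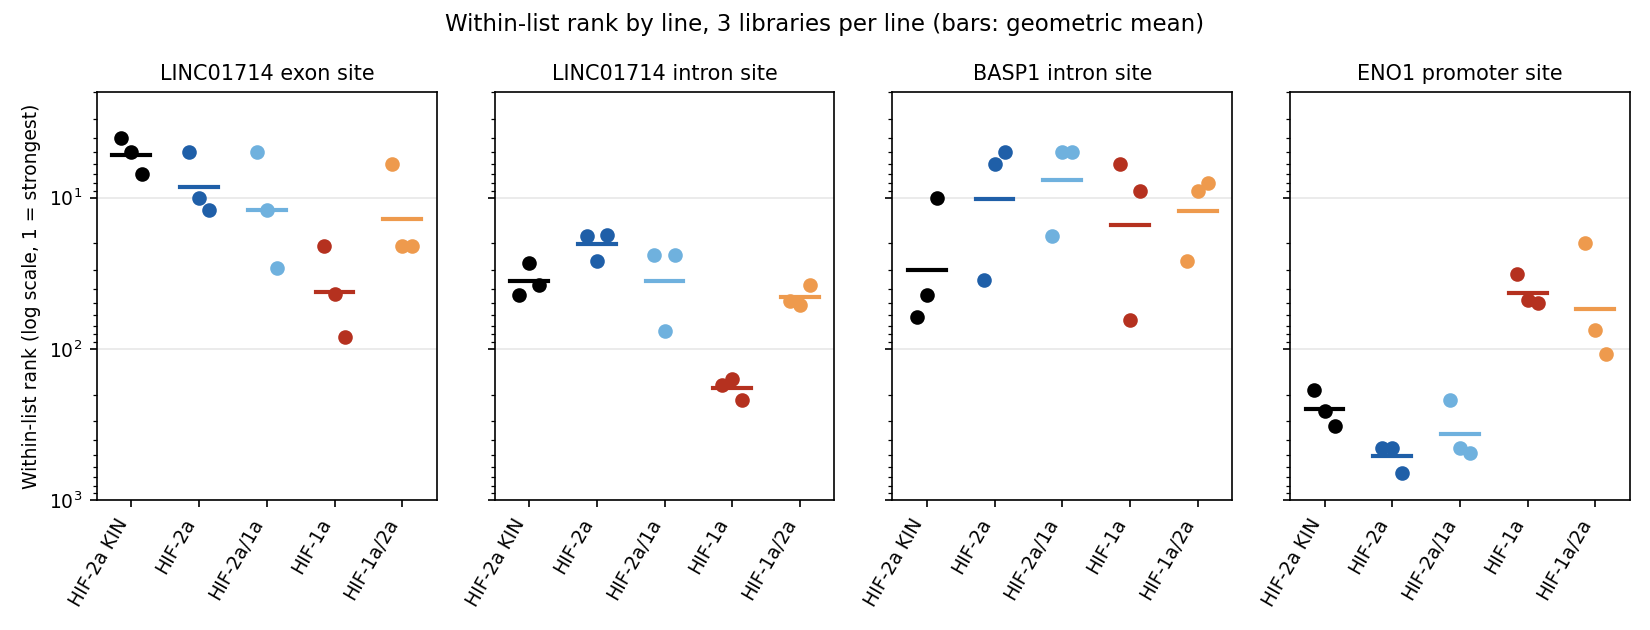
Rank within the peak list (y axis, log scale, 1 is the strongest) at the LINC01714 exon, LINC01714 intron, BASP1 intron and ENO1 promoter sites in the 5 tagged lines, with 1 point per library and a bar at the geometric mean of 3. Ranked by −log10 p, the LINC01714 exon and BASP1 intron sites stay within rank 83 in all 15 libraries. The ENO1 promoter site ranks 20 to 108 with the HIF-1a DBD and 187 to 657 in the other lines.

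As a yardstick, 20 textbook HIF target genes were looked up, with the best site within 10 kb of their starts. All 15 tagged libraries called such a site at 14 of them, with median ranks from 29 at ADM, a vasodilator peptide, to 806 at BNIP3, a mitophagy receptor, and a median of 258.75. None of these sites at the 14 genes ranked above either lead site. P4HA1, a collagen prolyl hydroxylase, came next to ADM with 33, and ENO1 stood at 217. The comparison describes ranks only, since the lead sites were chosen for theirs. Its reach of 10 kb was also shorter than that of the windows from which the lead sites came. TGFA, another of the 20 genes, had a best site within 10 kb with a median rank of 1227.25, called in 14 tagged libraries. A region 42810 bp from the TGFA start had a median rank of 11. That is ahead of the exon site (12) and behind the BASP1 site (9). The other textbook genes, CCND1 among them, were not searched beyond 10 kb, so more distant sites of theirs may also rank ahead of the lead sites. Regions nearest to CCN4 and MYEOV each had a median rank of 8, ahead of both lead sites. Their distances from textbook genes were not measured.

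Relative to the genome-wide mean of fragments per base, the exon site held 401-fold to 2730-fold in the tagged libraries and the BASP1 site 346-fold to 2768-fold. Replicate 2 was the highest of its line at both lead sites in all 5 tagged lines. At the exon site the HIF-1a library was the lowest of its replicate number each time. The summits were narrow in position. Over the 15 tagged libraries they spanned 86 bp at the exon site, 42 bp at the BASP1 site and 21 bp at the LINC01714 intron site. At the exon site 14 summits fell into 2 clusters, at 8202403 to 8202410 and at 8202430 to 8202435, and 1 was at 8202489. Each of the lines HIF-2a KIN, HIF-2a and HIF-1a/2a had summits in both clusters, whereas those of HIF-1a were at 8202403, 8202404 and 8202405 and those of HIF-2a/1a at 8202434, 8202435 and 8202489. The summits of RERE intron site B spanned 316 bp in 2 groups, 8477374 to 8477509 and 8477650 to 8477690, on either side of its TACGTG. The distance from summit to nearest HRE core was 32 to 118 bp at the exon site, 41 to 83 bp at the BASP1 site, 30 to 51 bp at the LINC01714 intron site, 16 to 53 bp at the ENO1 promoter and 70 to 205 bp at site B.

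**Figure D2:**
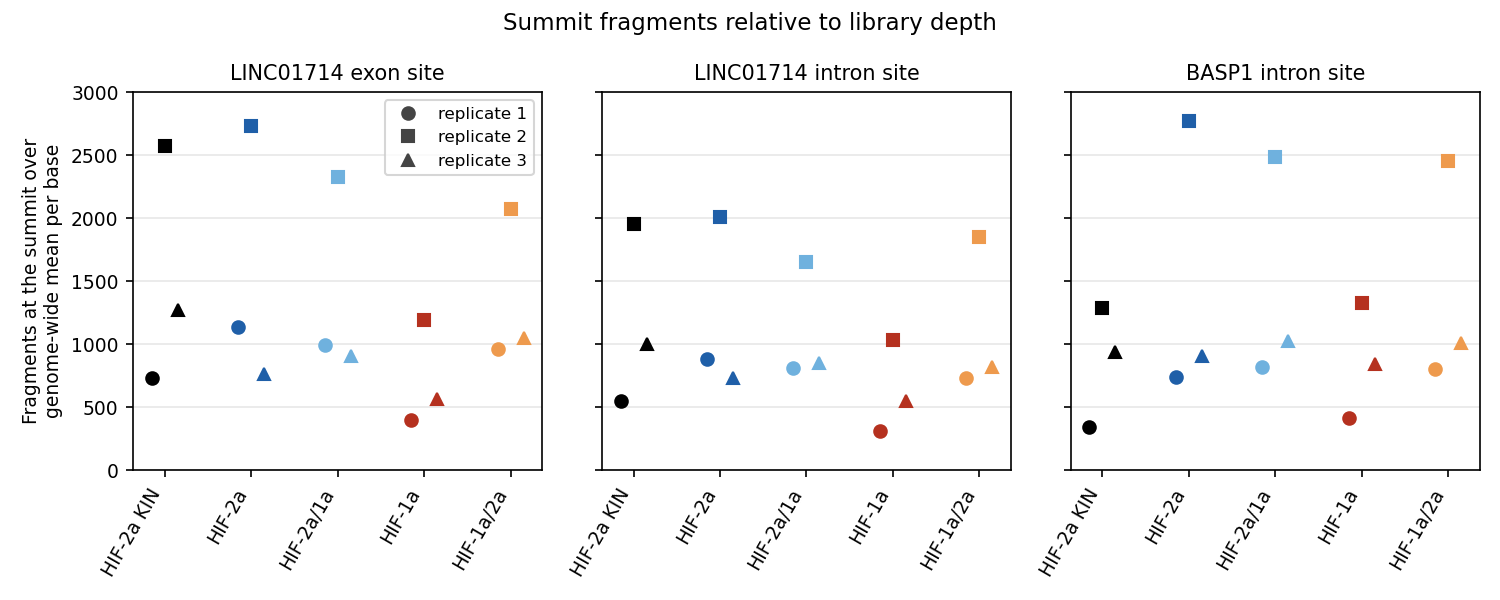
Fragments at the summit divided by the genome-wide mean number of fragments per base of the library (y axis, linear) at the 3 strongest sites, by line, with a symbol per replicate number. At the exon site the values run from 401 to 2730. Replicate 2 is the highest of its line in each panel, and the HIF-1a points are the lowest of their replicate number at both LINC01714 sites.

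The remaining shared sites ranked lower. The LINC01714 intron site, 9891 bp from the exon site, ranked 44, 27 and 38 in HIF-2a KIN, 18, 26 and 17.5 in HIF-2a, 24, 76 and 24 in HIF-2a/1a, 174, 158 and 216 in HIF-1a, and 48, 51 and 38 in HIF-1a/2a. All 3 HIF-1a libraries stood outside the range of the other 12, which was 17.5 to 76. WT replicate 2 also called this site, at rank 3582.5 with 18 summit fragments, against 126 to 1078 in the tagged libraries. The ENO1 promoter site ranked 187, 255 and 325 in HIF-2a KIN, 450, 451 and 657 in HIF-2a, 217, 449 and 489 in HIF-2a/1a, 32, 47.5 and 50 in HIF-1a, and 20, 75 and 108 in HIF-1a/2a. Here the order turned, with both lines that carry the HIF-1a DBD ahead of all others and no overlap.

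The SLC45A1 coding site ranked 74 to 519 over the tagged libraries, with a median of 375, and the lines overlapped. WT replicate 2 called it at rank 2032.5. RERE intron site A ranked 559 to 2926 (median 1753) and site B 442 to 5932. At site B the 3 HIF-2a KIN libraries (470, 594 and 442) and the 3 HIF-2a libraries (663.5, 781 and 676) stood ahead of the other 9, which began at 1087. The intergenic site ranked 781 to 6336.5 (median 1831), and WT replicate 2 called it at 4972.5 with 14 fragments.

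Next, the density of sites around the leads was described. The joined SLC45A1-RERE window, chr1:8168114-8998921, held 46.9 sites per Mb and the BASP1 window 19.6, against 8.78 over the whole genome. Shared sites came at 8.43 and 1.96 per Mb, against 0.586. Of the 49 sites, 8 were called in all 15 tagged libraries (16.3%, background 6.67%), 9 in 10 to 14, 13 in 5 to 9 and 19 in fewer than 5. A site called in all 15 tagged and in no WT library occurred 5 times (10.2%, background 4.66%). These shares restate the choice of the loci. Any WT call was found at 8 sites (16.3%, background 14.3%): 7 were called by WT replicate 2 alone, whose list of 9508 peaks compares with 392 and 743 in the other WT lists, and 1, at 8168264, by all 3.

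**Figure D3:**
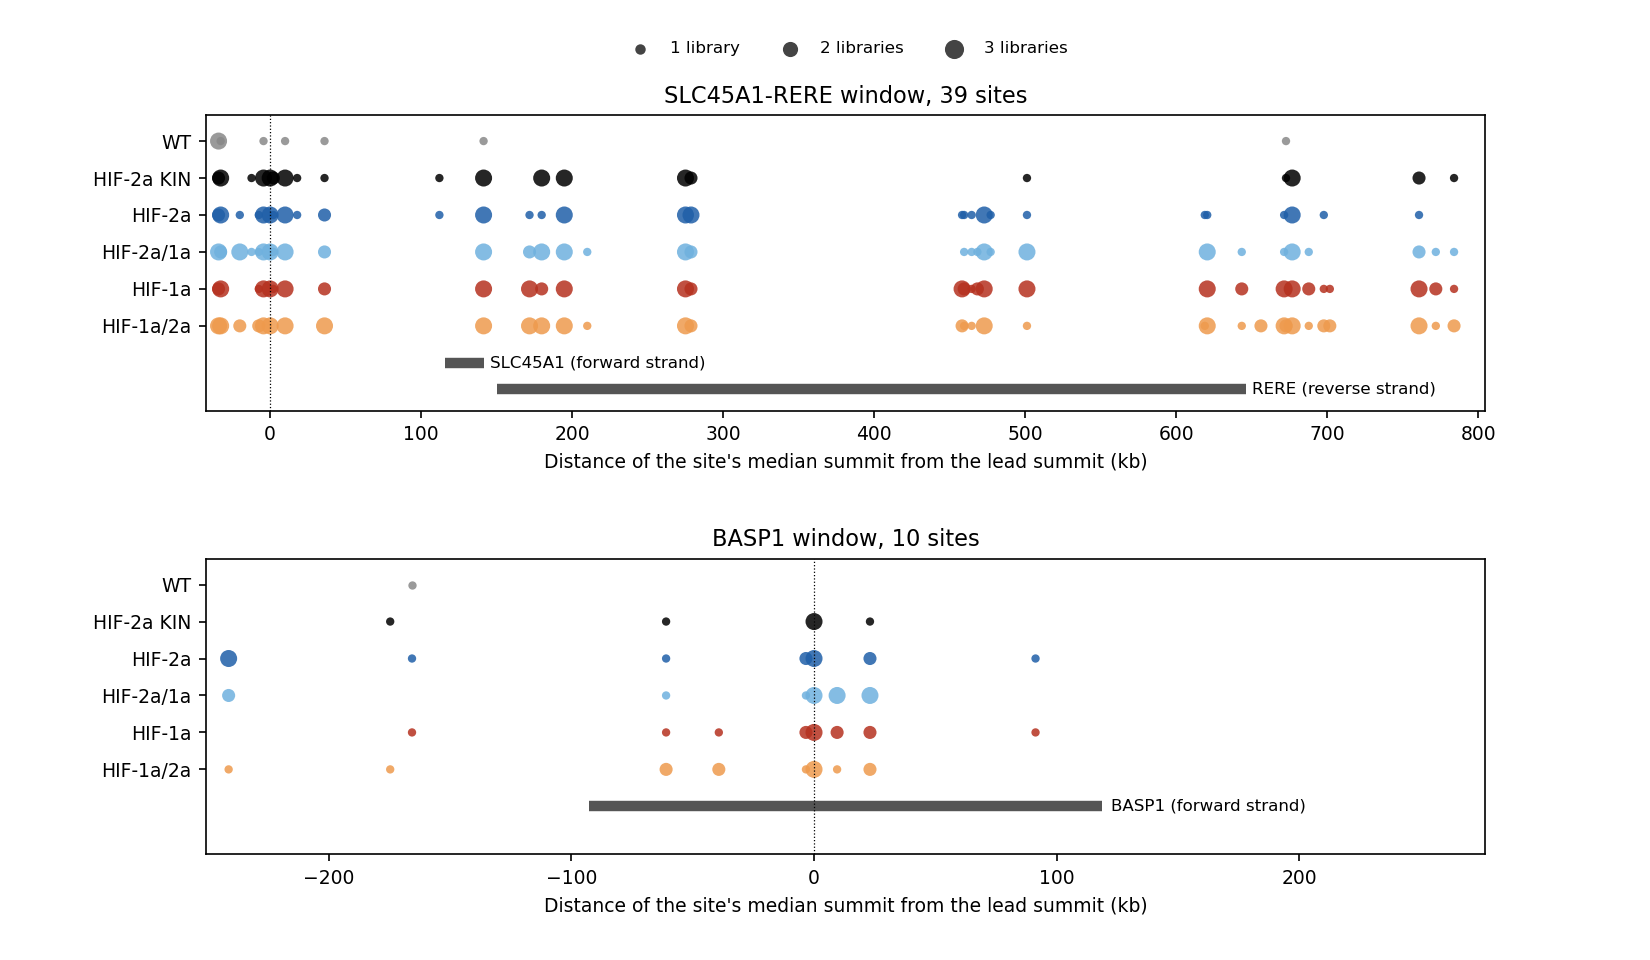
The 49 sites along both loci by distance of their median summit from the lead summit in kb (x axis), with a row per line and a dot whose size gives the number of libraries, 1 to 3, that called the site; bars show the gene bodies to scale. On chromosome 1 sites called in 3 libraries of every tagged line lie on both sides of the lead, in the 3' part of RERE and at ENO1. In the BASP1 window only the lead, at 0 kb, is called in 3 libraries of each tagged line.

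The starts of the 3 genes themselves were not where the peaks lay. No library had a summit within 1 kb of the gene start of SLC45A1 or BASP1, and 1 library had one within 1 kb of that of RERE. The nearest sites were 3604 bp from the SLC45A1 start (called in 2 tagged libraries), 3080 bp from the RERE start (4 libraries) and 31602 bp from the BASP1 start (6 libraries). RERE has 21 annotated transcript starts, and within 1 kb of any of them 10 libraries had a summit. At LINC01714 and ENO1 all 15 tagged libraries had a summit within 1 kb of the gene start. The files hold no measure of transcription, so which gene a site acts on is not addressed.

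Where the windows end mattered at 1 edge. The RERE window begins 6 to 92 bp from the summits of the exon site, so that the strongest site is just inside it (median rank 12), while the intergenic site (median rank 1831) is just outside by 4358 bp. The first site inside the SLC45A1 window, 150 bp from the edge and nearest to ERRFI1, a feedback inhibitor of the EGF receptor, was called in 12 tagged and all 3 WT libraries with a median rank of 2973.25; the next site outside was called in 4 tagged libraries (median rank 4752.75). At the far end of the RERE window the sites nearest to SLC2A7 and SLC2A5, hexose transporters, were called in 5 tagged libraries each, inside and outside. Around BASP1 the edge sites were called in 2 to 6 tagged libraries, and beyond the window the next site towards H3Y1 was 1306036 bp away.

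To see whether the strongest peaks depend on the DNA-binding part or on the disordered part, the 12 exogenous libraries were compared as 2 crossed factors, 6 libraries against 6. Each construct was 1 stable pool, so each side of a comparison holds 2 pools. The p-values measure spread between libraries, and domain cannot be told apart from differences between pools, such as expression level. The difference of the mean log2 rank was tested by an exact permutation test that exchanges labels only among libraries with the same other domain (400 relabellings, smallest p 0.005), with Benjamini-Hochberg adjustment over 2566 regions called in all 12 libraries and in at most 1 WT library. A negative difference means a stronger peak with the HIF-2a domain. The lead sites were selected on high ranks in every line, so their differences are given as a description, without a p.

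The exon site ranked 2.08 times closer to the top with the HIF-2a IDR (mean log2 rank 3.43 ± 0.88 against 4.49 ± 1.42, SD, n = 6 each), a difference of −1.06. It was −0.53 when ranks were divided by list length and −0.35 when peaks were ranked by fold. For the HIF-2a DBD the difference was −1.26 (−0.92 by list length and −0.42 by fold). At the BASP1 site the differences were 0.06 for the IDR and −0.63 for the DBD, the former with ranks of 5 to 35 and 5 to 64. The groups overlapped at both lead sites for both domains.

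Of the other 6 shared sites 3 had an unadjusted p under 0.05 for the IDR, each stronger with the HIF-2a IDR, against a background of 32.9% of regions (19.4% stronger with HIF-2a and 13.5% with HIF-1a). After adjustment 1 of 6 was called, with backgrounds of 13% in either direction, 8.46% with HIF-2a and 4.56% with HIF-1a. This was the intergenic site, with a difference of −1.45 (exact permutation p = 0.005, adjusted p = 0.0384) and ranks of 781 to 3203 against 2537.5 to 6336.5. The difference was −1.24 with the HIF-2a DBD and −1.65 with the HIF-1a DBD. The call was lost under ranking by fold, under division by list length, on the fold scale, and on leaving out any of 8 libraries (adjusted p from 0.0450 to 0.0768 over the 12 left out in turn). The LINC01714 intron site had −1.40 (exact permutation p = 0.015, adjusted p = 0.0715) and RERE intron site B −0.99 (exact permutation p = 0.04, adjusted p = 0.127). The median difference over the 6 sites was −0.66, against −0.10 over all regions tested.

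For the DBD, 3 of these 6 sites had an unadjusted p under 0.05, against 29.3% of regions (19.3% and 10%), 2 of them stronger with the HIF-2a and 1 with the HIF-1a domain. Adjusted calls numbered 1 in each direction, with backgrounds of 10.7% in all, 6.2% with HIF-2a and 4.48% with HIF-1a. The LINC01714 intron site ranked 3.40 times closer to the top with the HIF-2a DBD, a difference of −1.76 (exact permutation p = 0.005, adjusted p = 0.0468), with ranks of 17.5 to 76 against 38 to 216. The ENO1 promoter site ranked 8.96 times closer to the top with the HIF-1a DBD, a difference of 3.16 (exact permutation p = 0.005, adjusted p = 0.0468), with ranks of 20 to 108 against 217 to 657. The difference at ENO1 was 3.23 within the HIF-2a IDR and 3.10 within the HIF-1a IDR. Both adjusted p-values rose above the threshold, to between 0.0546 and 0.0759, when any library was left out, as well as under ranking by fold, list length or the fold scale. By list length the ENO1 difference was itself larger, at 3.50 (exact permutation p = 0.005, adjusted p = 0.121). That of the LINC01714 intron site was −1.43 (exact permutation p = 0.015, adjusted p = 0.192). Ranked by fold, the differences were 2.10 and −1.90 (exact permutation p = 0.05 and 0.06). With 1 library left out the ENO1 difference stayed at 2.80 to 3.41 (exact permutation p = 0.005, the smallest of 200 relabellings) and that of the LINC01714 intron site at −2.04 to −1.63 (exact permutation p from 0.005 to 0.01). The median over the 6 sites was −0.40, against −0.27 over all regions. The IDR difference did not depend on the DBD past the threshold at any of the 6 sites (smallest exact permutation p = 0.355, background 3.82% at an unadjusted p under 0.05 and 0% after adjustment).

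**Figure D4:**
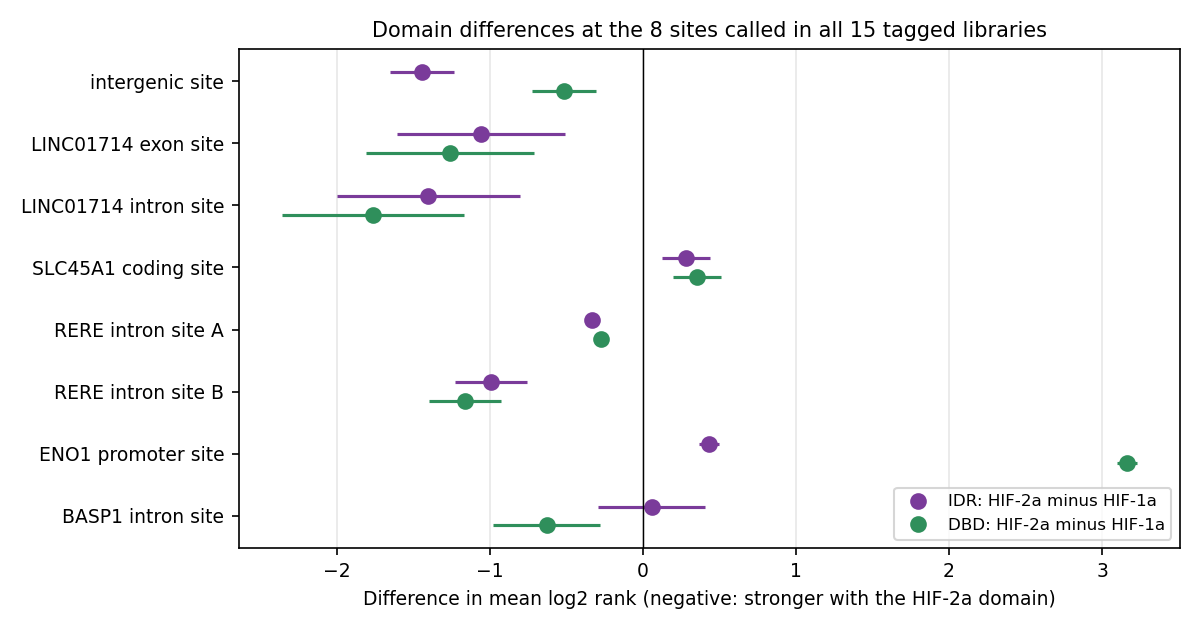
Difference of mean log2 rank, HIF-2a minus HIF-1a domain (x axis, negative is stronger with HIF-2a), at the 8 shared sites for the IDR and the DBD, 6 libraries against 6. Points are means; each horizontal line joins the differences found within the HIF-2a and the HIF-1a form of the other domain and is no error bar. The ENO1 promoter site lies at 3.16 for the DBD, and the LINC01714 sites lie between −1.06 and −1.76 for both domains.

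The summit fragments were also compared, divided by each list's median over the same 2566 regions; this scale was chosen after seeing the data. With the HIF-2a IDR the exon site had 1.69-fold and the BASP1 site 1.47-fold more fragments, given as a description. At the exon site the log2 value was 3.11 ± 0.31 against 2.36 ± 0.40, and at the BASP1 site 3.04 ± 0.27 against 2.49 ± 0.29 (SD, n = 6 each). The LINC01714 intron site had 1.64-fold and the intergenic site 1.84-fold more (each exact permutation p = 0.005, adjusted p = 0.0220), and RERE intron site B 1.44-fold more (exact permutation p = 0.01, adjusted p = 0.0337). Thus 3 of the other 6 sites were called higher with the HIF-2a IDR and 0 with the HIF-1a IDR, against backgrounds of 33.7% in all, 19.3% and 14.4%. At ENO1 the difference was −0.00 (exact permutation p = 0.98, adjusted p = 0.985). For the DBD, ENO1 had 2.32-fold more fragments with HIF-1a (adjusted p = 0.0332, exact permutation), and the LINC01714 intron site 1.37-fold and site B 1.44-fold more with HIF-2a (adjusted p = 0.0332 and 0.0477, exact permutation). That is 2 and 1 of 6 sites, against backgrounds of 21% in all, 11.3% and 9.7%. On the scale of fold over the list's median fold, the log2 IDR difference with the sign of ranks was −0.38 at the exon site and −0.36 at the BASP1 site, and none of the other 6 sites was called for either domain (smallest adjusted p = 0.352, exact permutation).

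**Figure D5:**
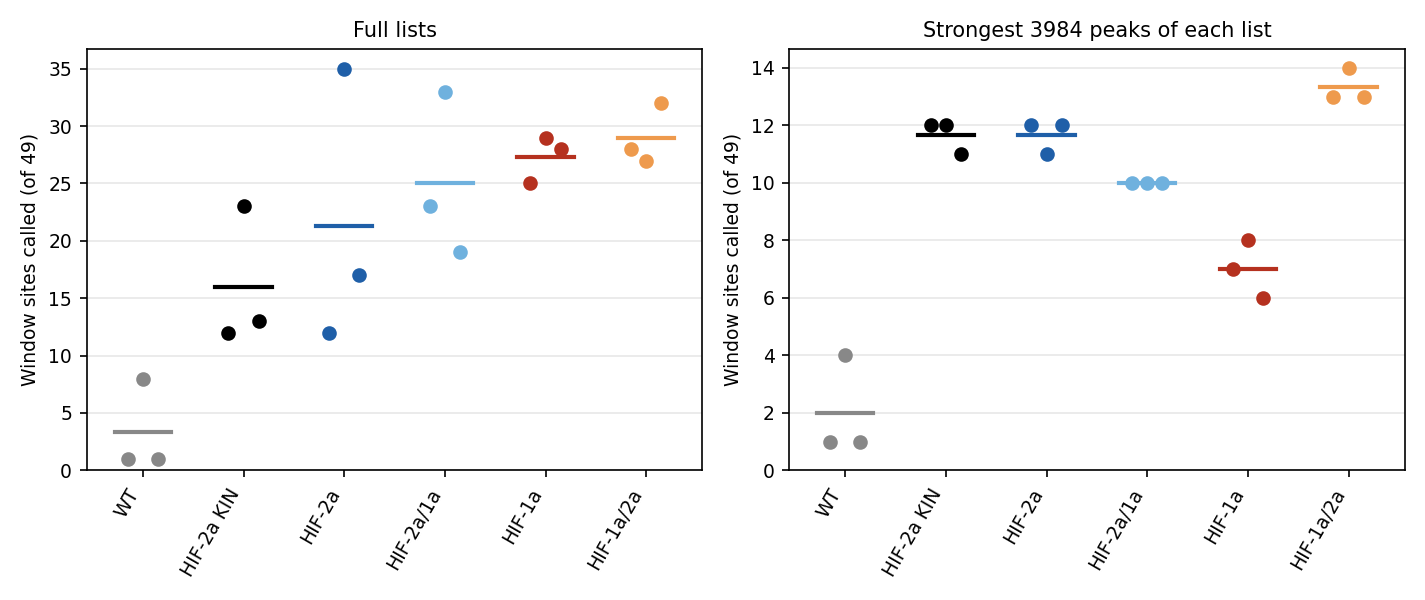
Number of the 49 sites called per library (y axis) in the full lists and among the strongest 3984 peaks of each list, by line, with 1 point per library and a bar at the mean of 3. In the full lists HIF-2a runs from 12 to 35; among the strongest peaks it runs from 11 to 12, with HIF-1a at 6 to 8 and HIF-1a/2a at 13 to 14.

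How many sites a library called was considered next. In the full lists HIF-2a KIN called 12, 23 and 13 of the 49 sites, HIF-2a 12, 35 and 17, HIF-2a/1a 23, 33 and 19, HIF-1a 25, 29 and 28, and HIF-1a/2a 28, 27 and 32, whereas WT called 1, 8 and 1. The exogenous libraries with the HIF-2a IDR called 25.2 ± 8.89 and those with the HIF-1a IDR 26.2 ± 4.92 (SD, n = 6 each), and the groups overlapped. List length moved with these counts, from 3984 peaks in HIF-2a KIN replicate 1 to 20808 in HIF-2a/1a replicate 2. No p-value is given for such totals, because the loci were chosen with results of these data known.

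Among the strongest 3984 peaks of each list, the length of the shortest tagged list, the counts changed order. HIF-2a KIN then called 12, 12 and 11 sites, HIF-2a 12, 11 and 12, HIF-2a/1a 10, 10 and 10, HIF-1a 7, 8 and 6, and HIF-1a/2a 13, 14 and 13. Libraries with the HIF-2a IDR called 12.5 ± 1.05 sites and those with the HIF-1a IDR 8.50 ± 1.76 (SD, n = 6 each), with ranges of 11 to 14 and 6 to 10 that did not overlap. The IDR difference was 1.67 sites with the HIF-2a DBD and 6.33 with the HIF-1a DBD, and 3.5 to 4.5 within replicate numbers. It fell to 2.33 sites when only the 41 sites with no WT call were counted (7 to 10 against 4 to 7). For single members the groups met or overlapped: 7 to 9 against 4 to 7 at SLC45A1, 7 to 10 against 5 to 8 at RERE, and 1 to 2 against 1 to 2 at BASP1. Over the single windows of 14116 protein-coding genes, which share sites with their neighbours, 0.227% had no overlap in this direction and 0.51% in the other. These shares are for single genes, so the count over both loci together has no matched background.

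Of the 19 window sites with such a strong call in an exogenous library and fewer than 2 WT calls, 12 were called in more libraries with the HIF-2a IDR, 0 in more with the HIF-1a IDR and 7 in as many, against 37.6% and 37.4% of regions genome-wide. In the full lists no site passed the threshold for a difference in calls by Fisher's exact test, 6 libraries against 6. Only sites called in about as many of these libraries as they were missing from could pass it. Neither the shared sites nor the 2 sites named below could. The counts therefore do not show that the domains are alike. By IDR 0 of 48 sites had an unadjusted p under 0.05 (background 1.41%), and by DBD 0 of 48 (background 0.562%), with 0% adjusted for either. The smallest exact Fisher p was 0.0606, for a RERE intron site at 8703604 (2 libraries with the HIF-2a IDR against 6) and for a site in an ENO1 untranslated exon at 8873896 (2 with the HIF-2a DBD against 6), both adjusted to 1.

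To ask whether the exogenous protein marks the same sites as the endogenous one, exogenous HIF-2a was compared with HIF-2a KIN, 3 libraries against 3, where the smallest possible exact permutation p is 0.1. The exon site ranked lower in strength with the exogenous protein by 0.70 on the log2 scale and the BASP1 site higher, with a difference of −1.56 (no p is given at the lead sites). The ranks did not overlap at 3 of the other 6 shared sites, against 25.9% of 1694 regions: the LINC01714 intron site was stronger with the exogenous protein (difference −0.82, background 12.5%), and RERE intron site B (0.50) and ENO1 (1.03) with HIF-2a KIN (background 13.4%), each with the smallest exact permutation p of 0.1. At ENO1 the KIN libraries ranked 187 to 325 and the exogenous HIF-2a libraries 450 to 657. With 3 libraries against 3 this comparison cannot pass the threshold, and exogenous expression, puromycin selection and the KIN clone cannot be told apart in it.

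Sequence was compared last. Within 50 bp of the median summit 17 of 49 sites held an HRE core (34.7%, exact 95% interval 21.7 to 49.6%), against 24.4% of all consensus regions. Of the 8 shared sites 6 did (exact 95% interval 34.9 to 96.8%), against 34.5% of the 1720 regions called in all 15 tagged libraries. Within 100 bp the shares were 87.5% and 67.6%. TACGTG occurred in 4 of 49 (8.16%), against 2.76%, and CACGTG in 1, the intergenic site. The AP-1 motif, TGACTCA or TGAGTCA, occurred in 4 of 49 (8.16%, against 8.28%) and in 0 of the 8 shared sites, which allows a share of up to 36.9% (exact 95% interval). The ENO1 region held 23 HRE cores in its 3254 bp, with each CACGTG counted once per strand. The exon region, which has no CACGTG, held 5 in 3348 bp. The exon site and site B were the shared sites with no core within 50 bp.

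Regions with the most similar ranks were found by the root mean square difference of log2 rank over the 15 tagged lists, among 1712 regions. For the exon site these lay nearest to FOSL2 (1.07), TGFA (1.10), CCN4 (1.33), SEPTIN9 (1.36) and MYEOV (1.51). FOSL2 is a subunit of AP-1 and TGFA a ligand of the EGF receptor. For the BASP1 site they lay nearest to KCMF1 (1.32), SYNPO (1.52), NDRG1 (1.65), DLG5 (1.67) and HPCAL1 (1.69). The regions lay 17162 to 125760 bp from the nearest gene start, and their median ranks were 8 to 30. Unlike the lead sites, the FOSL2 region was called in 2 WT libraries. Those at CCN4, MYEOV, SYNPO, NDRG1, DLG5 and HPCAL1 were called in 1 WT library each.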

How the data were processed

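The data are 18 anti-V5 Cut&Run peak lists of 786-O cells, 3 for each of 6 lines. Per the labels and the methods of the study, the authors aligned fragments of 10 to 700 bp to hg38 (Bowtie2 2.3.4.1, SAMtools 1.8), called peaks with MACS2 using matched IgG as control (q 0.01, maximum gap 400 bp, duplicates kept; version not given in the sources used here) and removed blacklisted regions (bedtools 2.28.0). The deposited columns used were the summit, the fold enrichment (a ratio to the local control), and the −log10 p and −log10 q. Read counts were not used here.

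Peaks overlapping by at least 1 bp were merged, and regions with peaks in at least 2 libraries were kept. Peaks were ranked within a list by the deposited −log10 p, ties sharing the mean rank. Summit fragments and local control level were solved from the fold and p; 100% of peaks gave whole fragments within a tolerance of 0.001 (0.01 in HIF-2a/1a replicate 2, whose pileup needed a fitted scale of 0.949; its origin is not given in the sources used here), and coverage was 0.241 to 0.625 fragments per base. Domains were compared by exact permutation over libraries and calls by Fisher's exact test, with Benjamini-Hochberg adjustment over all regions tested (Python 3.11.15, NumPy 2.4.6, SciPy 1.17.1, pandas 2.3.3; functions tested on simulated data). Intervals cover counting error only. Groups came from the labels, annotation from GENCODE 44.

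The genes, lists and tests were chosen with earlier results of these data known. Sites were described singly when they led a window or were called in all 15 tagged libraries. Other genes named overlap a window, lie nearest to its edge sites, are textbook targets, or are nearest to the 5 regions most alike to a lead. Ranking by fold, list length, the fold scale, a replicate block, other flanks and thresholds, and leaving out each library were tried as alternatives.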

Additional observations from a re-analysis of the deposited data

How the results depend on the processing

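Of 156 alternative values of the main comparisons 127 kept their direction and their side of the threshold, and 146 of 204 at the other shared sites. The summit-fragment scale and the counts without WT-called sites were chosen after seeing the data; on the fragment scale, values here have the sign of ranks. For the IDR, the BASP1 lead turned to −0.088 when ranked by fold, −0.36 on the fold scale and −0.55 on fragments (0.06 on ranks, −0.39 to 0.58 with 1 library left out), and the lead of SLC45A1 and RERE was at −0.76 on fragments (−1.06 on ranks). The ENO1 site turned to −0.68 by fold and −0.33 on the fold scale, RERE intron site A to 0.20 by list length, and the SLC45A1 coding site to −0.26 on fragments (−0.14 to 0.56 with 1 library left out). For the DBD, BASP1 turned to 0.13 by fold, RERE intron site A to 0.066 by list length and 0.18 on the fold scale, the intergenic site to 0.051 on fragments, and the SLC45A1 coding site to −0.071 on fragments (−0.065 to 0.64 with 1 library left out).

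The IDR difference in sites called (−1 in the full lists) turned to 2.17 with flanks of 300 kb and to 4 among the strongest peaks, and ranged from −4.42 to 1.33 with 1 library left out; that for the DBD (−5) turned to 0.667 among the strongest peaks and ranged from −8.42 to −2.67, the former without HIF-2a replicate 2. Sites with a Fisher p under 0.05 numbered 0 to 1 by IDR and 0 to 2 by DBD with 1 library left out. Exogenous HIF-2a minus KIN at BASP1 turned from −1.56 to 1.06 when ranked by fold. The share of sites with a motif near the summit moved from 34.7% (24.4% of all regions) to 8.16% for TACGTG alone, and was 49.0% against 45.5% within 100 bp. The cause was not tested for any of these.

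Over all regions the adjusted calls (334 for the IDR and 274 for the DBD) fell to 0 when ranked by fold, by list length or on the fold scale, and rose to 866 and 538 on fragments; without any 1 library the DBD gave 0, and the IDR 0 to 301. Replicate numbers are shared by the lines, but nothing says what they mark. Same-numbered libraries correlated at 0.0512 to 0.221 in their deviations (18 pairs), not all above 0.1, although 12 of 12 correlated best with their own number. With the replicate block the IDR difference at the lead site of SLC45A1 and RERE stayed at −1.06 and at BASP1 at 0.06; the smallest p it allows is 0.03125, and adjusted calls were 0 for both domains (645 and 576 regions at an unadjusted p under 0.05). List length did not simply follow coverage: HIF-2a KIN replicate 1 had 3984 peaks at 0.378 fragments per base and HIF-1a/2a replicate 2 had 18999 at 0.284.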
